A study of Rattus norvegicus with 18 samples.

Results

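RNA that sedimented with several ribosomes was compared with RNA that carried no ribosome in lysates of whole rat brain, isoform by isoform. The isoforms were those of a full-length transcript (FLT) collection from rat hippocampus with a mean of at least 1 TPM (the share of a library's transcripts, on a scale with the same total in every library) over the 6 libraries of the sucrose gradient, which kept 19667 of 28268 isoforms (69.6%). The lowest mean kept was 1 TPM and the highest mean left out was 0.998 TPM. Of the 8601 isoforms left out, 3712 were listed at 0 in all 6 libraries. By the labels all rats were male Sprague Dawley animals of 4 weeks of age (the study's methods give age and sex beside the hippocampal slices, not beside the gradient), and none carried an allele or treatment that the labels name. Frozen brains were lysed in the presence of cycloheximide, nuclei and debris were spun out, and ribosome-free, monosome and polysome material was collected from the gradient and sequenced, with 2 libraries for each. The sources used here do not say whether replicates came from separate brains, so p-values measure only the spread between these libraries, which may be technical.

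Polysome profiling sorts RNA by how many ribosomes sit on it. An mRNA that is being translated by several ribosomes sediments deep into the gradient as a polysome, an RNA with 1 ribosome sediments as a monosome, and RNA outside ribosomes (noncoding transcripts, stored mRNA and mRNA held before initiation) stays near the top. Isoforms of one gene that differ in their untranslated regions or reading frame can therefore lie in different fractions. A longer reading frame can also hold more ribosomes at the same time, so that length and position in a gradient are linked even when initiation is the same.

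The deposited values are shares of 1 library, so a few abundant RNAs in one fraction lower the values of all other RNAs there. Each library was therefore divided by the median ratio of its values to the average library, with factors of 0.713 and 0.746 for ribosome-free, 1.19 and 1.19 for monosome, and 1.15 and 1.16 for polysome RNA. Levels below are these scaled TPM unless deposited TPM are named. Differences are polysome minus ribosome-free on the scale of log2(scaled TPM + 1), which understates the change of low isoforms. Before the scaling the median difference over all isoforms tested was 0.63, and after it 0.12. All differences below are thus relative to the bulk of isoforms, and the absolute amount of RNA in each fraction was not measured. In whole brain, fewer cells of a type and less RNA per cell cannot be told apart either.

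A large share of isoforms differed between the fractions by more than the spread between libraries. With limma over all 6 libraries and Benjamini-Hochberg adjustment at 0.05, 7670 isoforms were called (39.0% of those tested), of which 4193 (21.3%) were higher and 3477 (17.7%) lower in polysome RNA. Without scaling the split was 6710 higher and 2191 lower, and leaving out polysome replicate 1 or 2 lowered it to 2313 and 2120 or to 2434 and 2122. In 7382 isoforms (37.5%) both polysome libraries lay above both ribosome-free libraries, and in 6212 (31.6%) both lay below. With no difference, the random order of 2 against 2 libraries would separate a share of 0.333 of isoforms, both directions together. Monosome RNA, which was no side of the contrast but entered the scaling, the filter and the fit, had intermediate medians for the called isoforms. These isoforms were selected for a difference between the other fractions, so a median between them is not independent evidence. The higher ones had median levels of 11.8 and 12.3 in ribosome-free RNA, 24.6 and 23.8 in monosome RNA and 38.4 and 38.3 in polysome RNA. For the lower ones, the medians were 36.5 and 35.4 in ribosome-free RNA, 14.7 and 15.1 in monosome RNA and 6.79 and 7.01 in polysome RNA.

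Read length, the length of the full-length PacBio read that stands for an isoform, set the fractions apart most at its short end. The tested isoforms were 369 to 23400 nt long, with a median of 2207 nt. Among 624 isoforms of up to 700 nt (of 804 in the collection), the median log2 difference was -0.98, with quartiles at -2.06 and 0.05. In that class, 263 isoforms (42.1%) were lower and 40 (6.41%) were higher in polysome RNA, against 17.7% and 21.3% over all isoforms. The 1090 isoforms above 700 and up to 1000 nt had a median of -0.42, with 334 (30.6%) lower and 190 (17.4%) higher.

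From 1000 nt upward the medians rose in small steps, 0.09 for 6861 isoforms up to 2000 nt, 0.18 for 6373 up to 3000 nt and 0.28 for 3599 up to 4000 nt. The 1120 isoforms above 4000 nt had a median of 0.30, with quartiles at -0.54 and 1.17, and here 327 (29.2%) were higher and 147 (13.1%) lower. The longest class thus lay 1.27 above the shortest, with an SD of 0.0977 over the 4 pairs of 1 polysome and 1 ribosome-free library, which share libraries. In each of these pairs, the median of the shortest class lay between -1.09 and -0.87 and that of the longest between 0.23 and 0.34. The quartiles of neighbouring classes overlapped widely, and Spearman's rho between read length and log2 difference over the 19667 isoforms was 0.120, as a description across isoforms that share the same libraries. Isoforms are not replicates, so no p is given for the classes.

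**Figure D1:**
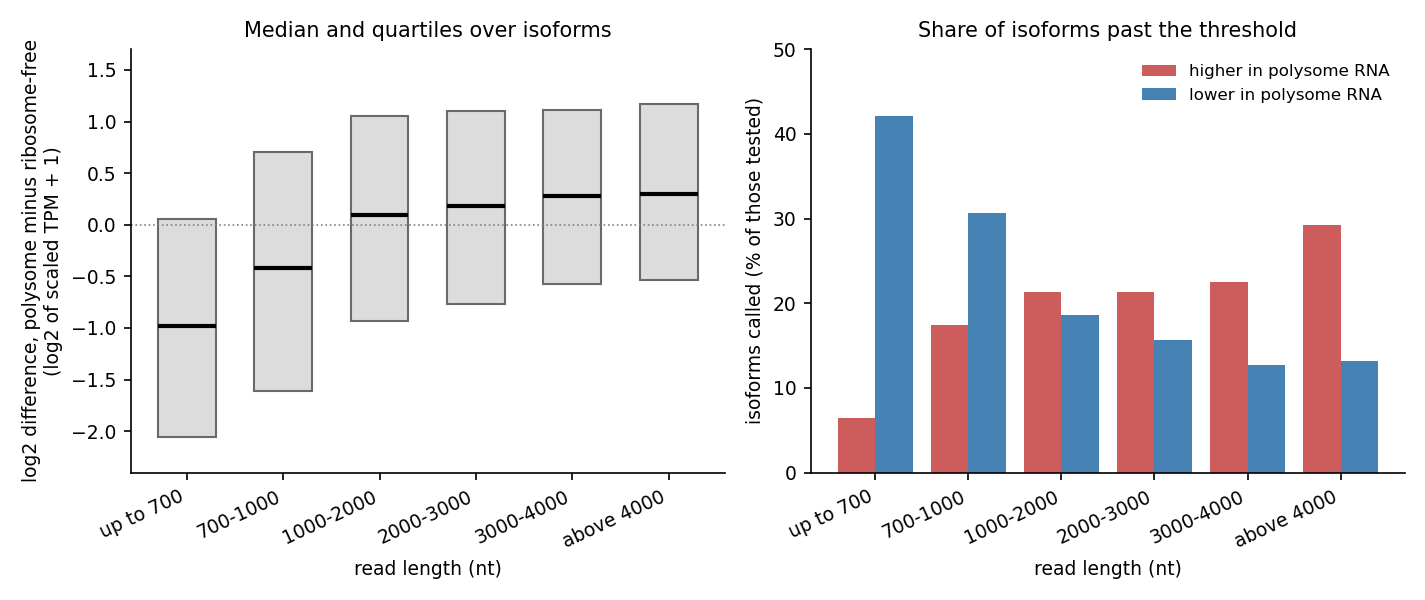
Left, log2 difference between polysome and ribosome-free RNA by read length class, with the median (line) and quartiles (box) over isoforms. Right, the percent of tested isoforms in each class called higher or lower in polysome RNA by limma. The share called lower falls from 42.1% in the shortest class to 13.1% in the longest, and the share called higher goes from 6.41% to 29.2%.

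The same shift was seen in the make-up of whole libraries. Isoforms of up to 700 nt held 30.4% and 30.2% of the deposited TPM of ribosome-free RNA, 17.6% and 18.4% of monosome RNA, and 8.25% and 9.44% of polysome RNA. Every class above 1000 nt held a larger share of both polysome libraries than of both ribosome-free libraries. Shares within a library have a fixed sum, so the smaller share of short isoforms by itself raises those of the other classes. The class above 4000 nt held 2.38% and 2.57% in ribosome-free RNA and 4.51% and 4.47% in polysome RNA. The mean read length weighted by TPM was 1918 ± 15.1 nt in polysome RNA and 1419.8 ± 19.8 nt in ribosome-free RNA (SD, n = 2), with 1776 and 1770 nt in the monosome libraries. Ribosome-free RNA was also concentrated in fewer species, since 132 and 142 isoforms held 50% of its TPM, against 725 and 731 in the polysome libraries. The fractions did not overlap for any of the 8 measures of this kind, but the exact two-sided permutation test on 2 against 2 libraries gave p = 0.333 for each, the smallest value that this design allows, and 0.333 after Benjamini-Hochberg adjustment over the 8.

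**Figure D2:**
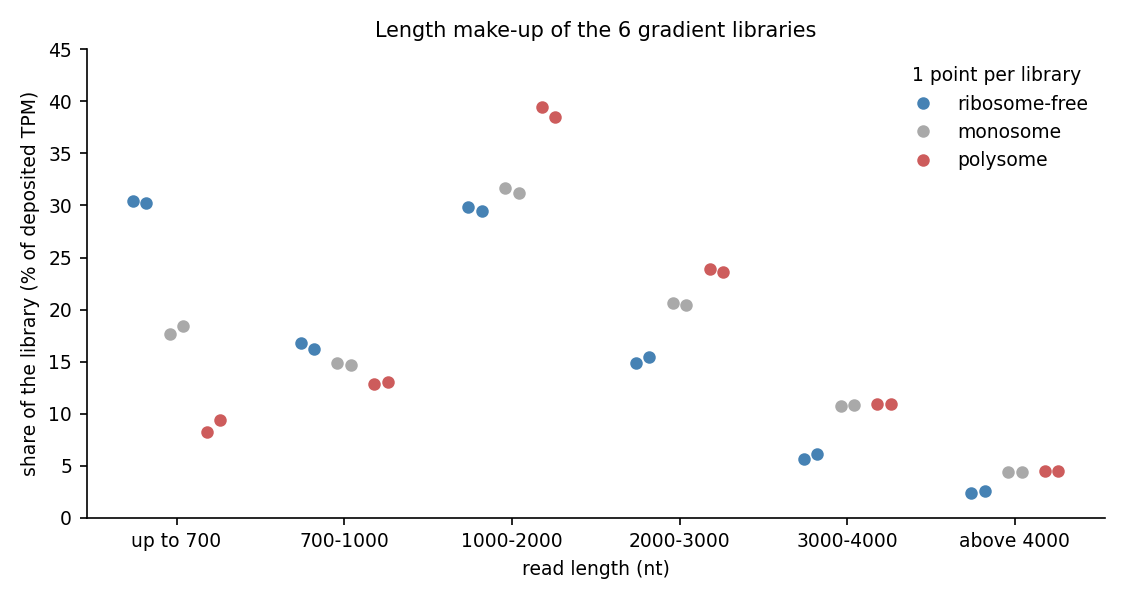
Percent of each library's deposited TPM held by isoforms of each read length class, with 1 point per library. Both ribosome-free libraries have about 30% of their TPM in isoforms of up to 700 nt, the monosome libraries 17.6% and 18.4%, and the polysome libraries 8.25% and 9.44%.

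The 5 most abundant isoforms of ribosome-free RNA, 4 of them of up to 700 nt, held 15.9% and 16.0% of its deposited TPM, against 5.80% and 6.47% in monosome and 1.29% and 1.67% in polysome RNA. The most abundant was a 595-nt isoform (RSN_LD1.109_ccs_115249_595_0_595_595_SUB0_pTNu_31) at 106392 and 100543 scaled TPM in ribosome-free RNA, 20981 and 21303 in monosome RNA, and 5238 and 6958 in polysome RNA. It was 17.0-fold lower in polysome RNA (adjusted p = 0.000271, limma) and still had the highest mean of the 2 polysome libraries there. In polysome replicate 1 alone it lay below isoforms of 1857 and 1239 nt (6453 and 5303). The next in ribosome-free RNA were isoforms of 561, 480, 483 and 1070 nt, which were 14.7-, 23.4-, 21.8- and 14.5-fold lower in polysome RNA, with adjusted p-values from 0.000125 to 0.000354 (limma). None of the 5 overlapped between the fractions, and the monosome libraries lay between the other fractions for each. None is paired with a gene name in the sources used here. With quantile normalization, which forces the most abundant isoforms of all libraries to one level, the 595-nt isoform was no longer called, at a log2 difference of -0.75 (adjusted p = 0.289, limma).

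The next most abundant isoforms of polysome RNA were higher there than in ribosome-free RNA. A 1857-nt isoform was at 154 and 439 in ribosome-free RNA, 3653 and 3613 in monosome RNA and 6453 and 5522 in polysome RNA, a 20.2-fold difference (adjusted p = 0.00223, limma). Isoforms of 1239 and 774 nt were 2.34- and 2.44-fold higher in polysome RNA, from 2519 and 2141 to 5303 and 5587 and from 1567 and 1408 to 3760.0 and 3494, and both had their lowest level in 1 of the monosome libraries. A 1793-nt isoform was at 2696 and 2579 in ribosome-free and at 4228 and 3358 in polysome RNA. This 1.44-fold difference (adjusted p = 0.0368, limma) was lost without either ribosome-free library (0.183 and 0.200), either monosome library (0.0715 and 0.0719) or polysome replicate 1 (0.130).

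From 1 TPM upward the length pattern was present in each class of abundance, and it spanned least in the lowest of them. Isoforms were grouped by their mean scaled TPM over the 6 libraries. For isoforms of 100 TPM and more, the median log2 difference went from -1.14 for up to 700 nt (154 isoforms) to 0.60 above 4000 nt (65 isoforms). At 20 to 100 TPM it went from -1.17 to 0.55, and at 5 to 20 TPM from -1.05 to 0.22. At 1 to 5 TPM it went from -0.68 in 138 isoforms of up to 700 nt to 0.01 in 269 above 4000 nt, and the medians of all classes above 1000 nt lay between -0.07 and 0.06. Spearman's rho of length and log2 difference was 0.0565, 0.107, 0.167 and 0.266 over isoforms in order of rising abundance. The 207 isoforms whose mean was under 1 TPM after scaling included none of up to 700 nt and went the other way, with medians of 0.99 in 7 isoforms above 700 and up to 1000 nt, 1.11 in 72 up to 2000 nt, 0.77 in 73 up to 3000 nt, 0.58 in 49 up to 4000 nt and 0.55 in 6 above 4000 nt.

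**Figure D3:**
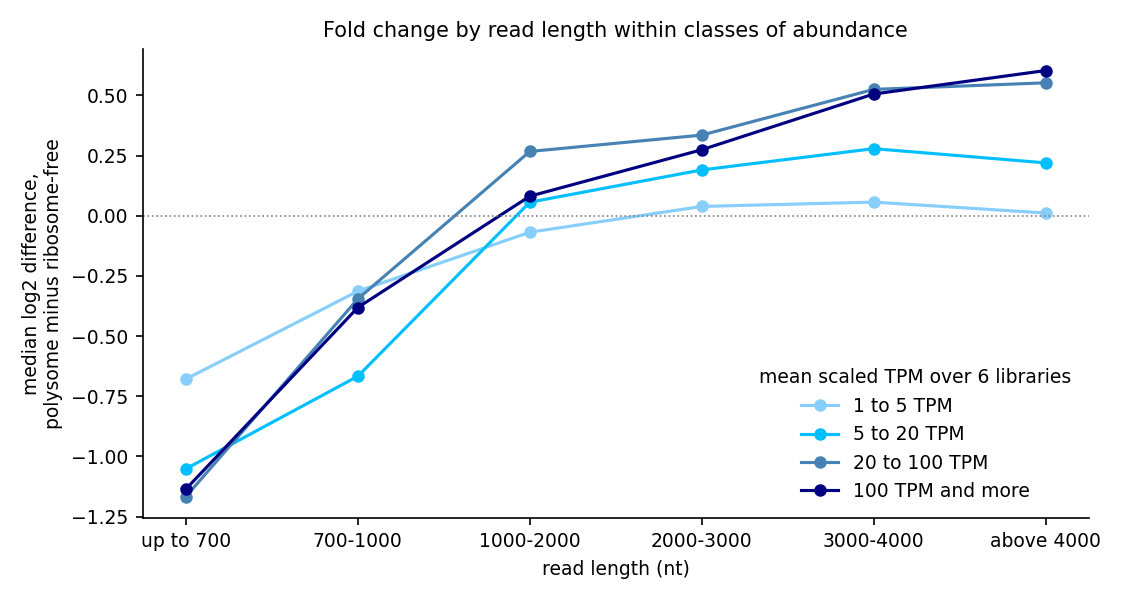
Median log2 difference between polysome and ribosome-free RNA by read length, drawn separately for the 4 classes of mean scaled TPM from 1 TPM upward (the 207 isoforms under 1 TPM are left out). All 4 lines start below -0.6 for reads of up to 700 nt and lie close to or above 0 from 1000 nt on, and the lines of 20 TPM and more end at 0.55 and 0.60.

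Abundance by itself had no steady relation with the direction of the difference. The median was -0.02 for 6400 isoforms at 1 to 5 TPM, 0.12 for 6406 at 5 to 20, 0.29 for 5030 at 20 to 100 and 0.06 for 1624 at 100 and more. What changed with abundance was how many isoforms passed the test. At 1 to 5 TPM, 8.88% were called higher and 8.91% lower, and at 100 TPM and more, 38.1% were higher and 36.1% lower. Over the same classes the spread of replicates, as the SD of their log2 difference, fell from 1.64 to 0.54 in ribosome-free RNA and from 0.97 to 0.34 in polysome RNA. Replicates of the ribosome-free fraction thus differed more than those of the polysome fraction in each class from 1 TPM upward. Under 1 TPM it was the reverse, with 0.42 in ribosome-free and 1.21 in polysome RNA. The 207 isoforms of that class had a median of 0.89, 13 were called higher and none lower. An isoform with a mean of at least 1 deposited TPM falls below 1 after scaling only when enough of its TPM lie in the monosome and polysome libraries, whose factors exceed 1.

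More isoforms were at 0 in ribosome-free RNA (10497 and 10890 of all 28268) than in polysome RNA (8026 and 8494). In 378 isoforms both ribosome-free libraries were listed at 0 and both polysome libraries at 10 deposited TPM or more, and in 183 isoforms the reverse held. Of the first, 372 were called higher, and of the second, 182 were called lower. The choice by levels in these same libraries sets the direction and makes a call likely, so nothing is read from these counts. Median read lengths were 2194 and 2188 nt, and 11 of the 378 and 17 of the 183 were of up to 1000 nt. In the monosome libraries, 43 of the 378 and 83 of the 183 were at 0 in both. A value of 0 is an estimate here, since the program that divides reads among overlapping isoforms can give all reads to one of them, and no fold is given for these isoforms. As examples, a 5100-nt isoform was at 0 and 0 in ribosome-free RNA, 303 and 220.4 in monosome RNA and 323 and 353 in polysome RNA. A 2626-nt isoform was at 0 and 0, 0.420 and 14.3, and 1011 and 645 in the same order. In the other direction, a 2185-nt isoform was at 487 and 458 in ribosome-free RNA and at 0 in the other 4 libraries, and a 754-nt isoform went from 539 and 468 over 19.96 and 11.0 to 0 and 0. A 5201-nt isoform was at 84.8 and 98.2 in ribosome-free RNA, at 0 and 1.52 in monosome RNA and at 0 in both polysome libraries.

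Reads that were a consensus of several passes (14282 isoforms, median length 1959 nt) and reads from single passes (5385 isoforms, median length 2650 nt) had median log2 differences of 0.09 and 0.20.

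Gene names were available for 551 isoforms of 390 genes. The study listed 524 of these for a change in the start of the protein that adds or removes a signal peptide. This is the leader that sends a protein to the endoplasmic reticulum (ER). The other 27 were listed for a conserved, unannotated reading frame. Of the 524, 140 were listed for a gained and 384 for a lost signal peptide. Descriptions of genes below are of their known proteins, from which the product of a listed isoform can differ. The study chose these isoforms among those that it had predicted to be actively translated from these same libraries, so their direction is not independent evidence. Of the 551, 456 passed the filter on low values. Among these, 115 (25.2%) were higher in polysome RNA and 65 (14.3%) lower, against 21.3% and 17.7% over all isoforms, and their median log2 difference was 0.43 against 0.12. The median read length of the tested members was 2293 nt. Of the isoforms listed for a gained signal peptide, 29 of 104 tested were higher and 16 lower, with a median of 0.48, and of those listed for a loss, 76 of 326 were higher and 46 lower, with a median of 0.37. Of the conserved reading frames, 10 of 26 tested were higher and 3 lower.

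Within this set, only 1 tested isoform was of up to 700 nt, the 673-nt isoform of Krtcap2, a subunit of the ER oligosaccharyltransferase, and it was called lower. Over all tested isoforms of that class, 42.1% were lower. Of the 12 above 700 and up to 1000 nt, 4 (33.3%) were higher and 4 (33.3%) lower, against 17.4% and 30.6% of the whole class. Of the 22 above 4000 nt, 9 (40.9%) were higher and 1 (4.55%) lower, against 29.2% and 13.1% of the whole class. The median of these 22 was 0.83 against 0.30 for all isoforms of that class. The counts are small, and nothing is read from them.

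The largest fall among isoforms with a gene name was in Ntrk2. An isoform of this gene, which encodes the BDNF receptor TrkB, with a read length of 1825 nt was at 179 and 145 in ribosome-free RNA, 2.85 and 9.76 in monosome RNA and 2.37 and 5.30 in polysome RNA. It was 42.2-fold lower in polysome RNA, with a log2 difference of -5.14 (SE 0.57, adjusted p = 0.00252, limma). The study listed it for a lost signal peptide. The 916-nt isoform of Metrn, which encodes the secreted neurotrophic protein meteorin, was at 1930.5 and 1467 in ribosome-free RNA. It was at 355 and 428 in monosome RNA and at 65.1 and 81.8 in polysome RNA, 23.1-fold lower (adjusted p = 0.000268, limma). The 731-nt isoform of Nenf, the gene of the secreted factor neudesin, was at 691 and 770.4, 497 and 554, and 159 and 173, 4.41-fold lower (adjusted p = 0.000343, limma). All 3 had both polysome libraries far below both ribosome-free libraries. In monosome RNA the Ntrk2 isoform was near its polysome level, and the Nenf isoform lay nearer to its ribosome-free level than to its polysome level.

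Among the other falls, that of Hars2 is given with the mitochondrial genes. Gpm6b, a membrane glycoprotein of the proteolipid family, had an isoform of 2455 nt that was 6.27-fold lower. Slc27a1, a fatty acid transporter, had one of 2674 nt that was 6.26-fold lower, from 38.3 and 30.9 to 7.64 and 3.42. An isoform of 1276 nt that the study lists under both Kti12 and Txndc12, the second being an ER thioredoxin-like protein, was at 85.5 and 96.1 in ribosome-free RNA and 24.9 and 20.9 in polysome RNA, 3.97-fold lower. Its monosome levels, 17.2 and 12.4, were below both other fractions. The call of Slc27a1 was lost without ribosome-free replicate 1 (adjusted p = 0.0632, limma) and without polysome replicate 2 (adjusted p = 0.0533, limma).

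The largest rise among isoforms with a gene name was in Gabbr1, which encodes the ligand-binding subunit of the GABA-B receptor. Its 2805-nt isoform (RSN_LD3.103_ccs_116515_2805_0_2805_2805_SUB0_pTNp_25) was at 6.37 and 16.1 in ribosome-free RNA, 386 and 330.2 in monosome RNA, and 396 and 458 in polysome RNA. It was 37.9-fold higher in polysome RNA, with a log2 difference of 5.25 (SE 0.40, adjusted p = 0.000909, limma), and its monosome level was close to its polysome level. The study listed this isoform for a lost signal peptide. A second isoform of Gabbr1, of 3611 nt, was nearly as abundant in polysome RNA (306 and 280.0) but was also at 168 and 208 in ribosome-free RNA, with a log2 difference of 0.64 (SE 0.15, adjusted p = 0.0243, limma). It was picked after its values were seen, to stand beside the first. The difference between these isoforms was not itself tested.

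Further rises were seen in Ptprn, Pde2a and Gas7. Ptprn, a tyrosine phosphatase-like protein of dense-core vesicles, had a 3540-nt isoform at 63.7 and 69.4 in ribosome-free RNA, 210.1 and 198 in monosome RNA and 248 and 268 in polysome RNA, 3.88-fold higher (adjusted p = 0.000343, limma). Pde2a, a phosphodiesterase that is stimulated by cGMP, had a 4053-nt isoform at 21.0 and 46.8, 133 and 145, and 139.6 and 146. Gas7, a gene of neurite outgrowth, had a 2995-nt isoform at 26.5 and 16.2, 75.3 and 79.1, and 107 and 95.9, 4.74-fold higher. In all of these the larger step lay between ribosome-free and monosome RNA.

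In the 1764-nt isoform of Adprhl2, an enzyme that removes ADP-ribose from proteins, the step lay elsewhere. It was at 27.1 and 31.5 in ribosome-free, 45.2 and 42.1 in monosome and 115 and 114 in polysome RNA, 3.90-fold higher (adjusted p = 0.000542, limma). Lypd1, a membrane-anchored modulator of nicotinic receptors, had a 1603-nt isoform at 0 and 0 in ribosome-free RNA, 0 and 2.99 in monosome RNA and 25.1 and 30.8 in polysome RNA. Isoforms of Tex264, a receptor for the autophagy of the ER, and Lgi4, a secreted protein of myelinating glia, were low in ribosome-free RNA and differed there between replicates, 0 and 4.56 for Tex264 and 1.30 and 9.67 for Lgi4. Their polysome levels were 18.2 and 24.8, and 28.9 and 42.5. Without 1 of the polysome libraries the calls were lost for Pde2a (highest adjusted p = 0.0803, limma), Lypd1 (0.0573), Tex264 (0.176) and Lgi4 (0.187). For Tex264 and Lgi4 they were lost without 1 of the monosome libraries too (highest adjusted p = 0.0839 and 0.0869, limma).

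Of 17 tested isoforms of 11 neurotransmitter receptor genes, 6 (35.3%) were higher and 3 (17.6%) lower in polysome RNA, with a median of 0.34. Over all isoforms these shares were 21.3% and 17.7%, so the lower count was at the background. Besides the GABA-B isoforms above, the 3065-nt isoform of Grik1, a kainate receptor subunit, was at 33.7 and 23.1 in ribosome-free RNA, at 0 in both monosome libraries and at 0.828 and 0 in polysome RNA (adjusted p = 0.00215, limma). Another isoform of Gabbr1, of 2418 nt, was higher at 16.0 and 13.7 in polysome RNA against 0 and 2.44 in ribosome-free RNA (adjusted p = 0.0164, limma), a call that was lost without polysome replicate 1 (0.116), polysome replicate 2 (0.101) or monosome replicate 2 (0.0502). The count of higher isoforms fell to 3 or 2 without polysome replicate 1 or 2 and to 3 without monosome replicate 2. Summed over the isoforms of the list, levels were 474 and 581 in ribosome-free, 1012 and 914 in monosome and 1084 and 1085 in polysome RNA. The 3 isoforms of Gabbr1 held 95.9% of this rise, and without them the sums were 299.8 and 354 in ribosome-free and 366 and 333 in polysome RNA, which overlap.

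Of 12 tested isoforms of 7 genes of synaptic and secretory vesicles, 3 (25%) were higher and 1 (8.33%) was lower, with a median of 0.87. The higher share was near the 21.3% of all isoforms, and the lower one stands against 17.7%. The 4 called belong to Ptprn and Ptprn2. Without scaling 6 were higher, and the lower count went to 0 without either ribosome-free library or polysome replicate 1 and to 2 without either monosome library. The most abundant isoform of this list, the 2376-nt isoform of Cpe, a carboxypeptidase that processes neuropeptides, was at 1665 and 1759.5 in ribosome-free RNA and at 1632 and 1679.8 in polysome RNA, a log2 difference of -0.05 (SE 0.08, adjusted p = 0.679, limma). It was chosen after its values were seen, for its level.

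Lysosomal genes encode hydrolases that in their known forms enter the ER by a signal peptide, which a listed isoform may lack. Of 28 tested isoforms of 25 genes, 8 (28.6%) were higher and 5 (17.9%) lower, against 21.3% and 17.7% over all isoforms, with a median of 0.68. The highest of at least 5 TPM were Plbd2, a phospholipase B-like protein, at 31.6 and 36.9 in ribosome-free RNA and 87.8 and 95.1 in polysome RNA, and Ctsa, cathepsin A, at 14.8 and 24.2 against 47.5 and 50.2. They were 2.67- and 2.50-fold higher (adjusted p = 0.00196 and 0.0113, limma), the second lost without polysome replicate 1 (0.0763) or 2 (0.0836). All 5 lower isoforms (Lipa, Aga, Asah1, Ctsf and one listed under Prcp and Rab30) had a mean below 5 TPM, whereas the 8 higher ones, which included both tested isoforms of Ctsd (cathepsin D) and one of Smpd1 (acid sphingomyelinase), were all above it. The lower isoform of Lipa, lysosomal acid lipase, was at 8.95 and 7.80 in ribosome-free RNA and at 0 in both polysome libraries, and the higher one of Smpd1 rose from 34.0 and 34.9 to 81.3 and 82.9. These names were chosen after the values were seen. Without either polysome library, 3 isoforms of the list were higher and 3 lower. The summed level of the list was 331 and 368 in ribosome-free and 682 and 665 in polysome RNA.

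Of 30 tested isoforms of 27 genes of ER folding and glycosylation, 5 (16.7%) were higher and 4 (13.3%) lower. Both shares were a little below those of all isoforms (21.3% and 17.7%), and the median was 0.02. Without scaling 11 were higher and 3 lower, without ribosome-free replicate 2 these were 10 and 6, and without either polysome library 2 were lower. Emc7, a subunit of a complex that inserts membrane proteins, was at 126 and 119 in ribosome-free RNA and at 266 and 251 in polysome RNA, 2.11-fold higher (adjusted p = 0.00127, limma). Ddrgk1, an ER protein of the UFM1 pathway, was at 259.6 and 262 in ribosome-free, 137 and 123 in monosome and 121 and 113 in polysome RNA, 2.23-fold lower (adjusted p = 0.00108, limma). Sdf2, an ER protein of the stress response, was at 40.5 and 55.6 against 92.9 and 77.5, a call (adjusted p = 0.0248, limma) that was lost without ribosome-free replicate 1 (0.0670), either monosome replicate (highest 0.0615) or either polysome replicate (highest 0.133).

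Mitochondrial genes had 9 isoforms higher (20%) and 3 lower (6.67%) of 45 tested from 36 genes, with a median of 0.74. The higher share was at the background of 21.3%, and 17.7% of all isoforms were lower. The higher count was 24 without scaling and 14 without ribosome-free replicate 1. Nudt9, an ADP-ribose hydrolase, was at 55.9 and 54.5 in ribosome-free RNA, 53.8 and 40.8 in monosome RNA and 161 and 147 in polysome RNA, 2.79-fold higher (adjusted p = 0.00227, limma). Endog, the nuclease endonuclease G, had an isoform of only 761 nt that was 2.56-fold higher, at 35.8 and 37.8, 40.5 and 44.6, and 94.3 and 93.6 (adjusted p = 0.00103, limma). In both, the rise lay between monosome and polysome RNA. The strongest fall of the list was a 3086-nt isoform of Hars2, the mitochondrial histidyl-tRNA synthetase, at 47.8 and 61.2 in ribosome-free RNA, 0 and 0 in monosome RNA and 0 and 1.82 in polysome RNA (adjusted p = 0.00261, limma). Summed levels of the list were 1112 and 1086 in ribosome-free, 865 and 919 in monosome and 1745 and 1640.5 in polysome RNA.

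**Figure D4:**
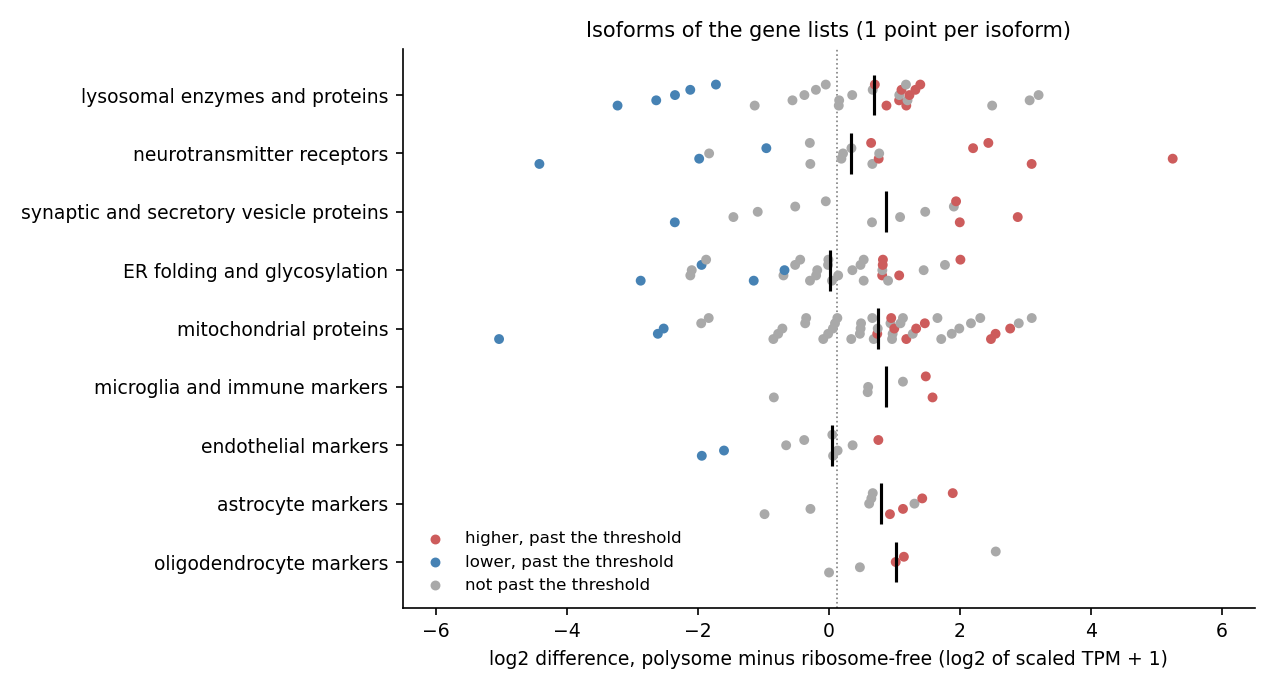
Log2 difference between polysome and ribosome-free RNA of each tested isoform of 9 gene lists, with 1 point per isoform, a black line at the list's median and a dotted line at the median of all isoforms tested (0.12). Isoforms called by limma lie on both sides in the lysosomal, receptor, vesicle, ER, mitochondrial and endothelial lists, and the 2 to 4 calls in each of the microglia, astrocyte and oligodendrocyte lists lie on the higher side.

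Markers of the cell types of the brain were detected in the gradient, and no gene of these lists was at 0 in all 6 libraries. Above 0 in all 6 were 5 of 10 microglia and immune genes, 6 of 8 endothelial, 8 of 11 astrocyte, 3 of 4 oligodendrocyte and 6 of 8 neuronal genes. These counts rest only on the isoforms that the study's lists pair with a gene name, so they are not rates of detection of the genes. Of the glial lists, 4 of 10 astrocyte (40.0%), 2 of 6 microglia (33.3%) and 2 of 5 oligodendrocyte isoforms (40.0%) were higher and none was lower, against 21.3% and 17.7% over all isoforms, and their medians were 0.80, 0.86 and 1.02. At these list sizes a share of 17.7% amounts to few isoforms, so nothing is read from the missing lower calls. Without polysome replicate 2, 1 microglia isoform was called, and without either monosome or either polysome library 1 oligodendrocyte isoform was. Neuronal markers had 3 of 11 higher (27.3%) and 1 lower (9.09%), with a median of 0.36. Summed astrocyte levels were 206 and 248 in ribosome-free and 527 and 535 in polysome RNA, summed microglia levels 37.9 and 50.7 against 122 and 110.2, and summed neuronal levels 209 and 253 against 338 and 312. Bcan alone held 51.3% of the astrocyte rise and C1qb 87.2% of the microglia rise. Whether the lists differ from each other was not tested, and their isoforms are subject to the same choice by the study as above.

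Among glial isoforms, that of Bcan, the matrix proteoglycan brevican, was at 44.1 and 74.3 in ribosome-free, 163 and 181 in monosome and 203 and 228 in polysome RNA, 3.64-fold higher (adjusted p = 0.00441, limma). C1qb, a subunit of complement C1q, was at 27.1 and 33.8, 39.0 and 34.6, and 101 and 84.9, 3.05-fold higher (adjusted p = 0.00217, limma). Ndrg2 and Apod, of astrocytes and oligodendrocytes, were 2.76- and 2.25-fold higher (adjusted p = 0.00248 and 0.00213, limma). Pld4 of microglia and Gsn of oligodendrocytes were 3.28- and 2.13-fold higher. Without polysome replicate 2, the calls of Bcan (adjusted p = 0.0517, limma), Pld4 (0.0773) and Gsn (0.211) were lost. That of Gsn (adjusted p = 0.0485 with all libraries, limma) was lost without any 1 of the 6 libraries, with adjusted p-values from 0.0624 upward.

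Of 9 tested endothelial isoforms, 1 (11.1%) was higher and 2 (22.2%) were lower, counts too small to set against the 21.3% and 17.7% of all isoforms. The median was 0.05, and the summed level was 212 and 216 in ribosome-free and 197 and 227 in polysome RNA. The 2 lower ones belong to Egfl7, a secreted factor of vessels, at 29.1 and 29.6 against 6.67 and 7.15 for the 1305-nt isoform and at 18.9 and 23.2 against 7.53 and 5.13 for the 1884-nt one. Cldn5, the tight junction protein claudin-5, was at 49.1 and 58.4 against 88.1 and 94.0. These calls (adjusted p = 0.00754, 0.00961 and 0.00911, limma) were lost without polysome replicate 2 (0.0626, 0.0602 and 0.0566), that of the 1305-nt Egfl7 isoform also without polysome replicate 1 (0.0676). Without polysome replicate 2 no isoform of the list was called.

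Isoforms of one gene were also set side by side. For 79 genes with at least 2 tested isoforms (193 isoforms in all), the range of the log2 difference within a gene had a median of 1.63 and quartiles at 0.73 and 2.78. SDs between replicates reached 1.64 at low levels, and this range was not compared with that of isoforms of unrelated genes, so it is a description only. Of 17 genes with at least 2 called isoforms, 5 had isoforms called in opposite directions, Gabrg1, Gnptg, Gpr108, Lamp5 and Ptprn2. Over all isoforms 54.7% of calls were higher, so called isoforms of unrelated genes often go opposite ways too. How often was not counted, and the 5 are not read as more than that.

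In Ptprn2, a dense-core vesicle protein related to Ptprn, isoforms of similar length were opposed. The 3237-nt isoform was at 24.7 and 14.7 in ribosome-free, 145 and 103 in monosome and 150.4 and 144 in polysome RNA, 7.47-fold higher (adjusted p = 0.00177, limma). The 3043-nt isoform was at 79.4 and 98.3, 45.3 and 77.3, and 10.8 and 24.8, 4.98-fold lower (adjusted p = 0.0132, limma). In ribosome-free RNA the shorter isoform was the more abundant one in both libraries, and in polysome RNA the longer one. The call of the 3043-nt isoform was lost without either ribosome-free library (0.0682 and 0.0864) or polysome replicate 1 (0.0662).

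In Lamp5, which encodes a membrane protein of endosomes and synaptic vesicles in neurons, the 1282-nt isoform was at 166 and 161 in ribosome-free, 109 and 103 in monosome and 92.5 and 66.1 in polysome RNA, 2.06-fold lower (adjusted p = 0.00825, limma). The 1451-nt isoform was at 31.4 and 15.7, 37.1 and 31.7, and 72.1 and 89.9, 3.44-fold higher (adjusted p = 0.0126, limma). The call of the first was lost without ribosome-free replicate 1 (0.0549) and without scaling (0.115), and that of the second without polysome replicate 1 (0.0744) or 2 (0.0989).

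In Gnptg, a subunit of the enzyme that tags lysosomal hydrolases, the 1315-nt isoform was at 114 and 60.1 in ribosome-free, 101 and 98.4 in monosome and 27.4 and 27.0 in polysome RNA (adjusted p = 0.0134, limma). The 1287-nt isoform was at 0 and 0, 1.63 and 1.05, and 7.24 and 10.1 (adjusted p = 0.00328, limma), and 2 further isoforms with estimates on the lower side, of 1464 and 2323 nt, did not pass the test. In Gpr108, a membrane protein of the Golgi, the 2697-nt isoform was at 23.2 and 24.2, 2.41 and 1.60, and 1.28 and 0.242, 31.1-fold lower (adjusted p = 0.00234, limma). Its 2109-nt isoform was at 0 and 0, 11.2 and 3.04, and 8.61 and 11.6 (adjusted p = 0.00999, limma). The calls of the 1315-nt isoform of Gnptg and the 2109-nt isoform of Gpr108 were lost without either polysome library (highest adjusted p = 0.102 and 0.0817, limma), the latter also without either ribosome-free library (0.0537 and 0.0528).

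In Gabrg1, the gamma-1 subunit of the GABA-A receptor, isoforms of 3538 and 4235 nt were lower, from 30.0 and 26.8 to 6.26 and 6.61 (adjusted p = 0.00454, limma) and from 61.8 and 65.0 to 37.2 and 27.8 (adjusted p = 0.0152, limma). One of 7522 nt was at 0 and 0 in ribosome-free RNA and at 1.74 and 6.70 in polysome RNA (adjusted p = 0.0367, limma). The call of the 7522-nt isoform was lost without any 1 library other than polysome replicate 1 (adjusted p from 0.0546 to 0.107, limma), and that of the 4235-nt isoform without either ribosome-free library (0.0622 and 0.0720), without polysome replicate 2 (0.0733) and without scaling (0.256). Reads that isoforms of one gene share were divided among them by estimation, and its part in these values was not tested.

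**Figure D5:**
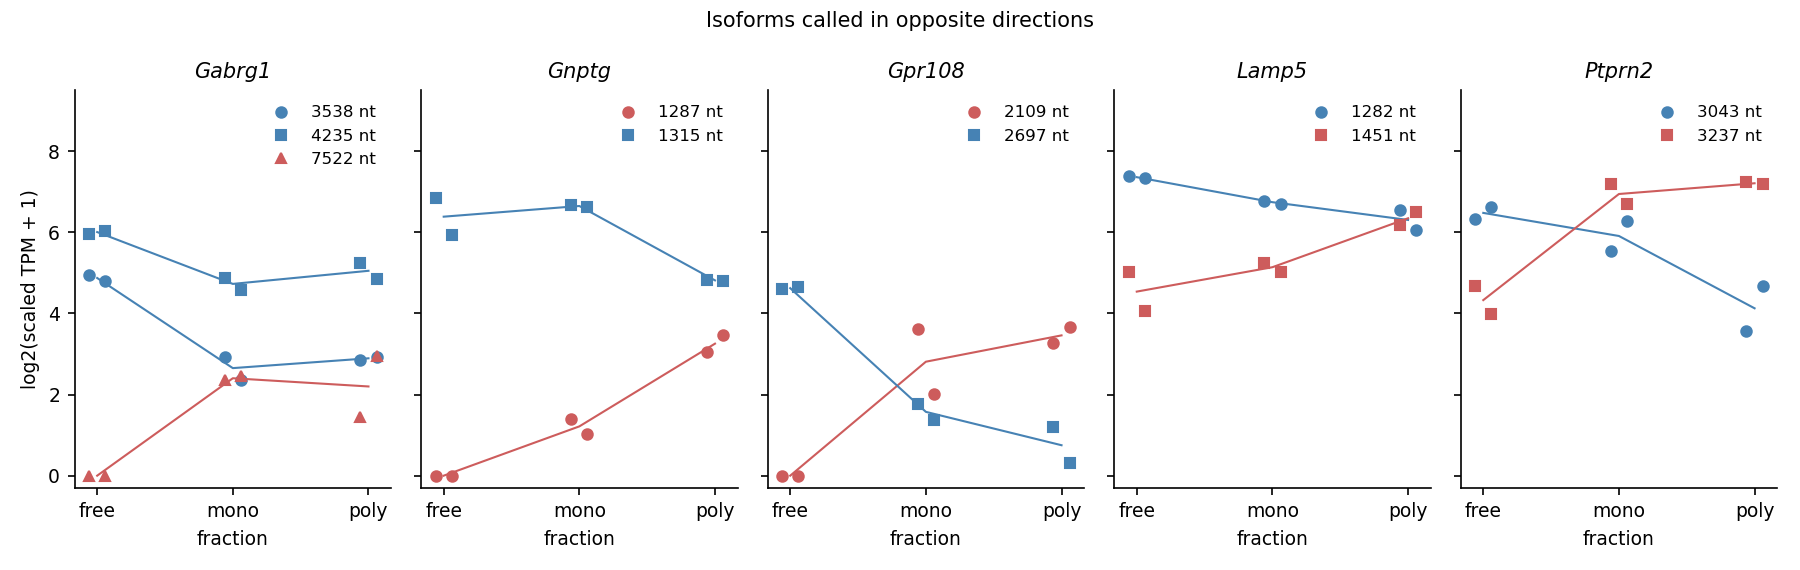
Level on the log2(scaled TPM + 1) scale in the ribosome-free (free), monosome (mono) and polysome (poly) fraction of the called isoforms of 5 genes, with 1 point per library and lines through the means. Red isoforms were called higher and blue ones lower in polysome RNA, and the lines cross in Gpr108, Lamp5 and Ptprn2. In Lamp5 the polysome points of the isoforms overlap, so their order there is not clear.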

How the data were processed

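RNA of 2 ribosome-free, 2 monosome and 2 polysome libraries was sequenced as 2 reads per fragment. The authors removed adapters with flexbar and estimated isoform levels with RSEM and Bowtie 2 on the FLT sequences; the RSEM version is not given in the sources used here. The labels give rn6 as the genome build and polyadenylated RNA, whereas the methods name a total RNA kit. The deposited values are TPM per isoform. TPM keep no read counts, so the depth is unknown, and no interval or limit that needs it is given. The 12 value columns of the tables could all be matched to samples. Ribosome footprinting (6 libraries) is not used here.

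Read length was taken from the isoform identifier. Libraries were scaled by median ratios over 13153 isoforms above 0 in all 6 libraries. limma 3.58.1 in R 4.3.3 (lmFit, eBayes with a trend) was fitted on log2(scaled TPM + 1) over all 6 libraries, two-sided, with Benjamini-Hochberg adjustment over 19667 isoforms. Python 3.11.15 with pandas 2.3.3, scipy 1.17.1 and matplotlib 3.10.9 served for summaries, exact permutation tests and plots. Tested on simulated data over these 19667 isoforms, the fit recovered 41 of 100 isoforms shifted by 1.5 log2 units. Of 100 shifted by 3 it recovered 74, with 3 false calls, and it made 0 calls when none was shifted. Only 200 isoforms were shifted, all with a mean of at least 10 TPM, whereas 39.0% of isoforms were called in the data. Whether these counts hold with many isoforms shifted or for isoforms of low level was not tested. Nor was the unequal spread of replicates in the fractions.

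The isoforms, gene lists, classes and tests were chosen with earlier results of these data known. Named isoforms are, per length class, the called isoform with the highest and lowest difference (mean of at least 10 TPM, no overlap between fractions); the 5 most abundant of each fraction; the 10 highest and 10 lowest called gene-paired isoforms, at most 1 a gene in each direction (mean of at least 10 TPM, no overlap); up to 2 per direction and gene list (mean of at least 5 TPM); and genes with calls in both directions. Some isoforms that this rule names enter counts only, and isoforms named outside it are marked as chosen after their values were seen. A gene list of the design is not reported here. Gene names come only from the study's lists of reading frames. The alternatives changed the scaling, pseudocount, filter, prior variance, libraries in the fit, replicate term and required fold, and left out each library in turn.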

Additional observations from a re-analysis of the deposited data

How the results depend on the processing

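The counts over all isoforms were 4193 higher and 3477 lower. Without scaling they were 6710 and 2191, with 75.4% of calls on the higher side in place of 54.7%, and every isoform called lower without scaling was also called lower with it (2191). With a required fold change of 2 they were 1134 and 1352. Leaving out 1 library gave 2313 to 4421 higher and 2120 to 3294 lower, the lowest without a polysome library. For isoforms paired with gene names (115 and 65) these values were 184 and 38 without scaling, 24 and 15 with the required fold, and 71 to 126 and 37 to 59 without 1 library. For those listed for a signal peptide (105 and 62) they were 169 and 36, 21 and 13, and 67 to 118 and 34 to 56. For those listed for conserved reading frames (10 and 3), the higher count was 3 with the required fold and 4 to 9 without 1 library, and the lower count was 5 with ratios over isoforms of at least 10 TPM and 3 to 4 without 1 library.

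For reads of up to 700 nt (40 and 263), no scaling gave 75 higher, the required fold 13 and 137, and leaving out 1 library 21 to 53 and 179 to 230. For reads above 4000 nt (327 and 147), no scaling gave 503 and 70, the required fold 71 and 36, and leaving out 1 library 186 to 344 and 66 to 133. The difference between the longest and the shortest class (1.27) was 1.54 with a pseudocount of 0.1, 0.88 with 5, 1.06 over isoforms with a mean above 0, 1.46 over those of at least 5 TPM, 0.35 between tertiles of read length and 1.24 to 1.40 without 1 library. It kept its sign throughout. The difference between the highest and the lowest abundance class (0.08) did not: it was -0.0103 with ratios over isoforms of at least 10 TPM, -0.14 with a pseudocount of 0.1 and -1.19 over isoforms of at least 5 TPM, where few low isoforms remain. It was 0.41 without scaling, 0.15 with quantile normalization, 0.11 with a pseudocount of 5, 0.13 with a mean above 0, 0.46 over isoforms above 0 in all 6 libraries, 0.13 without the 10 most abundant ribosome-free isoforms and 0.0556 to 0.0896 without 1 library. Over isoforms of at least 5 TPM, the lowest class keeps only those that fall below 5 TPM after scaling. As for the isoforms under 1 TPM above, this needs enough of their TPM in the monosome and polysome libraries. The part of this selection in the -1.19, and the cause of the other moves, were not tested.

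Samples with the same replicate number showed no shared deviation, with correlations of deviations of 0.00214, 0.00208 and -0.0105 between the fractions. Isoforms of all levels counted alike in these correlations, and the spread between replicates was large at low levels. Whether the numbers pair samples is thus not settled. With the replicate number as a block, 3709 isoforms were higher and 3094 lower. Of 66 called isoforms named or followed by the rule, 22 lost their call without at least 1 polysome library, 9 without at least 1 ribosome-free library and 8 without at least 1 monosome library; none changed sign under any setting. Fits without a library have fewer degrees of freedom, and where a fraction keeps 1 library its spread is assumed to be that of the others. Depth is unknown, and the SD between ribosome-free replicates of 1.64 at 1 to 5 TPM limits what can be seen there.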

Other observations

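The isoforms called in the gradient also differed in level in tissue that was not fractionated, in tables that were made separately. Isoforms higher in polysome RNA had median levels of 31.3 and 33.6 deposited TPM in the 2 hippocampus libraries, those lower in polysome RNA 14.2 and 16.1, and those not called 6.90 and 9.28. In the somata layer of the CA1 region the medians of the higher and lower isoforms were 33.6 and 34.1 against 13.8 and 13.3, and in the neuropil layer 35.7 and 34.4 against 15.0 and 14.5. The order was thus the same in all 6 libraries, and no test was made across isoforms. Isoforms not called were low in the gradient too, with median scaled TPM of 5.71 and 5.64 in ribosome-free and 5.43 and 5.41 in polysome RNA.

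Seen from the hippocampus side, the share called higher went from 9.46% of 4249 isoforms with a mean above 0 and up to 5 TPM, over 15.6% and 32.0%, to 41.4% of 1962 isoforms above 100 TPM. The share called lower went from 15.3% over 16.5% and 18.9% to 24.8%. Both shares also rose with level in the gradient itself, where replicates of abundant isoforms differed less. They were 8.88% higher and 8.91% lower at 1 to 5 TPM, and 38.1% and 36.1% at 100 TPM and more. The part of gradient level in the shares by hippocampus level was not tested. Of the 1850 tested isoforms at 0 in both hippocampus libraries, 13.8% were higher and 15.8% lower in polysome RNA. Among isoforms above 0 in hippocampus, the length pattern had medians of -1.001 for up to 700 nt and 0.31 above 4000 nt, and among those at 0 it had -0.76 in 61 isoforms and 0.01 in 46. The gradient was run on whole brain, so the regions compared are not the same.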
